A study of Mus musculus with 16 samples.

Results

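Clustered histone genes were followed in single cells of mouse chimaeras that combine *Stat3* null and WT cells. The members are the genes whose symbol gives one of the 4 histone gene clusters, *Hist1* to *Hist4*, and which held 100 or more unique molecular identifiers (UMIs, the counted cDNA molecules) over all cells not called doublets. The pattern matched 67 of the 29453 genes in the matrix and 62 passed the minimum. Just below it were *Hist1h2bq* with 19 UMIs and *Hist1h2ba* with 17, and just above it *Hist1h2aa* with 132 and *Hist2h3c2* with 178. By class, 6 members code for linker histone H1, 17 for H2A, 15 for H2B, 12 for H3 and 12 for H4.

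In the study, tdTomato-expressing *Stat3* null embryonic stem cells (ESCs) were injected into WT CD1 blastocysts, and cells of the chimaeric whole embryos, taken at embryonic day E7.5 or E8.5 or at E9.5, were sorted on tdTomato and sequenced with 10x 3′ v3 chemistry. The tdTomato-positive fraction is called null and the tdTomato-negative fraction WT, so both come from the same chimaeric embryos. Each genotype had 2 libraries at E7.5, 2 at E8.5 and 4 at E9.5, named here by stage, genotype and a letter that pairs no libraries. The donor ESCs were CD1 as well, from the breeding stock of the hosts. Null cells nevertheless all descend from cultured donor ESCs of an outbred stock and WT cells from the hosts, so a difference in *Stat3* and another difference between donor cells and hosts cannot be told apart. The study lists its tdTomato plasmid as pPBCAG-H2B-tdTomato-IP, a name that points to a fusion with histone H2B. Host cells lack this transgene, and its part in the levels below was not tested. Embryos were pooled at E7.5 and E8.5. At E7.5 the study classed them as large or small before pooling, so the 2 libraries of a genotype may differ in embryo size. The E9.5 embryos were processed singly, but the study describes only a pair of them, fewer than the E9.5 libraries of each genotype. Some E9.5 libraries may therefore share an embryo, n counts libraries throughout, and p-values measure the spread between libraries.

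Replication-dependent histone genes supply the core histones H2A, H2B, H3 and H4, which wrap DNA into nucleosomes, and linker histone H1, which binds the DNA between them. They are best known for transcription at the onset of S phase in nuclear bodies around the clusters, and their mRNAs usually end in a stem-loop bound by SLBP instead of a poly(A) tail. A 3′ poly(A)-primed method therefore sees the polyadenylated transcripts of these genes and only part of the others, and the level of a member here is its UMIs scaled to 1000000 UMIs of the library (CPM), with no scaling to length.

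In GRCm38 coordinates, 50 members lie in the *Hist1* cluster at chr13:21715763-23934851, 9 in *Hist2* on chromosome 3, 2 in *Hist3* on chromosome 11 and 1 in *Hist4* on chromosome 6. The stem-loop, with a stem of 6 bases and a loop of 4, was found in the annotated GENCODE transcript of 42 members, and 20 transcripts held none, 10 of them models of the coding sequence only. The most frequent form, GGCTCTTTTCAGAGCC, stood in 25 members. Of the 42, 19 transcripts ended within 60 bases after the stem-loop and 23 ran further. The stem-loops of 7 members that carry the comparisons are printed here with 5 flanking bases on each side, the stem and loop in capitals.
*Hist1h4i*: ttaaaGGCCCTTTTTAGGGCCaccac
*Hist1h4d*: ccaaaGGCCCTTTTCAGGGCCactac
*Hist1h2bj*: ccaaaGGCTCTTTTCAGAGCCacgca
*Hist1h2ae*: acaaaGGCTCTTTTCAGAGCCattca
*Hist2h2ac*: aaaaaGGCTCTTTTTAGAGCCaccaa
*Hist1h3c*: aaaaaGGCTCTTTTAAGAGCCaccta
*Hist1h1e*: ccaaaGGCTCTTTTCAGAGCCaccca

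Promoters of members could be read for 57 of the 62 in RefSeq (GRCm38), and 250 bases before each start were searched on both strands for letters known from histone promoters. TATAAA stood in 47.4% of them, against 12.4% of all 32851 promoters in the table. CCAAT stood in 82.5%, against 33.8%, and ATTTGCAT, the octamer bound by POU2F1, in 21.1%, against 1.60%. The classes differed in their letters. Every H1, H2A and H2B promoter held CCAAT but only 3 of 11 H4 promoters did, and the 12 octamers were in H2A (7) and H2B (5). The core of a STAT site, TTCNNNGAA, stood in 3.51% of the member promoters (*Hist1h1e* and *Hist4h4*), against 7.02% of all.

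The 120 bases before the start are printed for the member with most UMIs (*Hist1h1b*), for members of the H2A, H2B and H4 classes and for *Hist1h4i*, whose level separated the genotypes. Capitals mark the letters searched for, the STAT core apart, on either strand.
*Hist1h1b*, chr13:21780626-21780745, minus strand: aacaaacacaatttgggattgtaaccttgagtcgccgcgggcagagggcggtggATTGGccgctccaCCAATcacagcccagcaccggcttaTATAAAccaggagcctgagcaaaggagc
*Hist2h2ac*, chr3:96220881-96221000, minus strand: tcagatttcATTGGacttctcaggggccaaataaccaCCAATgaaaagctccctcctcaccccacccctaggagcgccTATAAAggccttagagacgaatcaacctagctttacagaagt
*Hist1h2bm*, chr13:21721924-21722043, plus strand: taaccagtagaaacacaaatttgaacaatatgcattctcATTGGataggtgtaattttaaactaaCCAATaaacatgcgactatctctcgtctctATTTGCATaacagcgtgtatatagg
*Hist1h4d*, chr13:23581448-23581567, plus strand: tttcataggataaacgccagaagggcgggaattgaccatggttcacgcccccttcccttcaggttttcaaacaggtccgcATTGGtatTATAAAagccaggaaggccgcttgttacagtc
*Hist1h4i*, chr13:22041363-22041482, minus strand: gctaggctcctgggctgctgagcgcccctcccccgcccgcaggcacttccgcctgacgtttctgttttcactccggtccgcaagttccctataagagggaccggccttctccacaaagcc
The printed *Hist1h4i* window holds none of these letters, but the 250 bases searched hold a TATAAA further upstream, which is counted above.

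Over the 16 libraries 37841 cells were kept, with 20682659 to 138613245 UMIs per library. *Stat3* was 1.16 to 2.53 CPM in null libraries and 6.14 to 9.31 in WT libraries, with no overlap at any stage. All 53 defining markers of 13 cell type lists were higher in the types they name than in other cells. Cell barcodes seen in 2 or more libraries numbered 488.

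The members together held 0.283% of all UMIs. 2 genes made up 47.8% of that, *Hist1h1b* (H1.5, a linker histone) with 28.0% and *Hist1h2ap* (H2A) with 19.8%, and 19 members made up 90%. *Hist1h1b* ranged from 611 to 978 CPM over the libraries and *Hist1h2ap* from 355 to 1172. After these came *Hist1h1e* (H1.4), with a median of 253 CPM, *Hist1h2ae* (H2A) with 214, *Hist1h4d* (H4) with 122 and *Hist1h1a* (H1.1) with 99.8, and these are medians over the 16 libraries. By UMIs summed over all libraries, *Hist1h3c*, *Hist1h3e* and *Hist1h3i* ranked highest in the H3 class, with medians of 65.5, 41.4 and 22.9, and in the H2B class *Hist2h2bb*, *Hist1h2bm* and *Hist3h2ba*, with 40.1, 31.4 and 19.5. *Hist1h4h* and *Hist1h4i* followed *Hist1h4d* in the H4 class by the same sum, with medians of 50.1 and 19.8. By the median, *Hist1h2be* (22.4) stood above *Hist3h2ba* and *Hist1h4a* (23.3) above *Hist1h4i*. The testis genes *Hist1h1t* and *Hist1h2aa* were among the rarest, with medians of 0.304 and 0.0356. *Hist1h2ap* shares all of the last 150 bases of its transcript, in windows of 50 bases, with other H2A genes. Reads of that stretch may not tell these genes apart. In the same windows *Hist1h3f* shares all of its last 150 bases with *Hist1h3e*, and *Hist1h2bn* with other H2B genes. Over the members, 17 shared more than 50% of these windows with another gene of the pattern and 31 shared none. *Hist1h1e* (H1.4) overlaps *Hist1h2be* on the same strand, and reads of their shared stretch cannot be told apart.

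**Figure D1:**
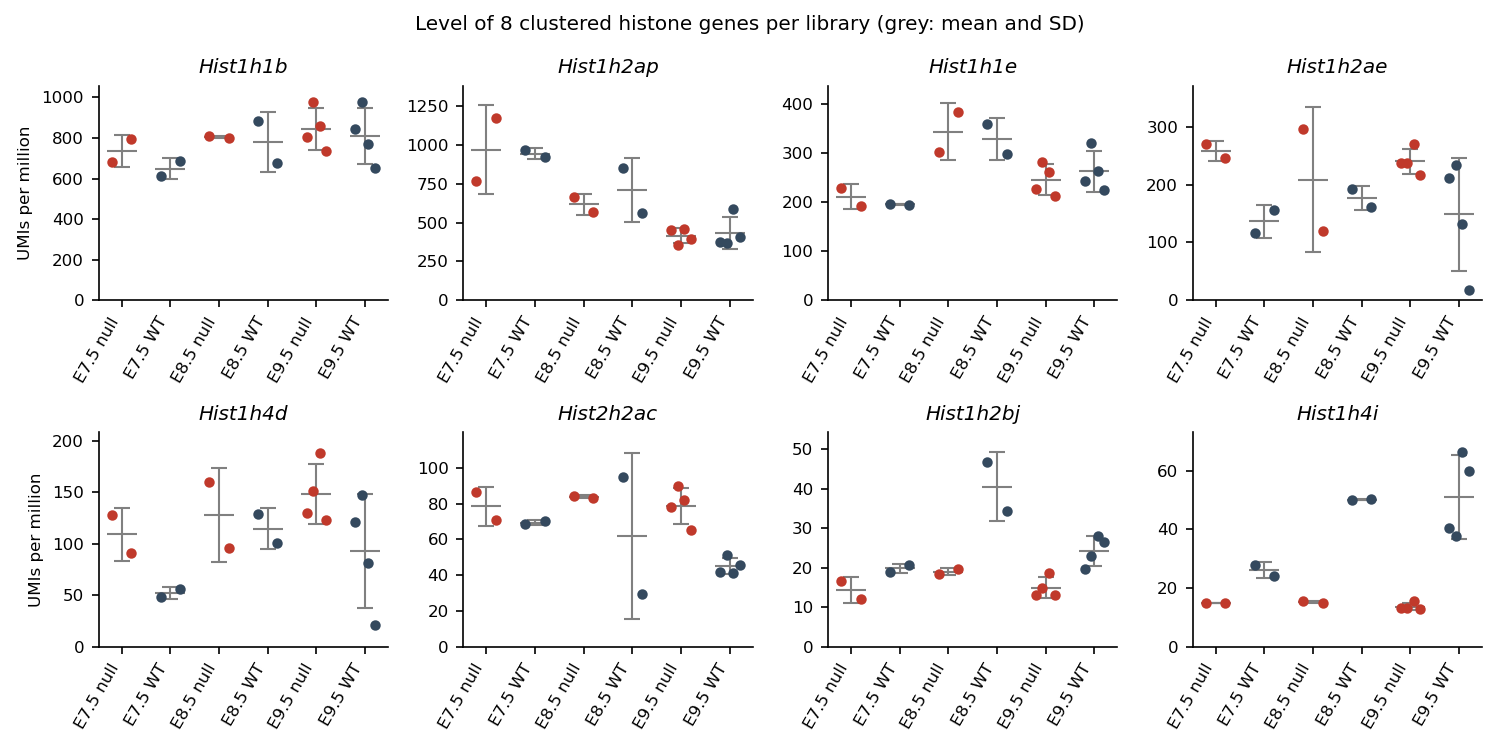
Level of 8 members in each library (y axis, CPM) by stage and genotype (x axis), with null libraries in red, WT libraries in dark blue, and grey bars for the mean and SD. *Hist1h4i* lies at 12.9 to 15.4 in the null libraries of all stages and at 24.2 to 66.2 in the WT libraries, while *Hist1h1b* overlaps between genotypes at every stage.

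Some libraries stood apart in a stretch of the *Hist1* cluster. In E9.5 WT D, 11 of the 60 members tested at that stage were below 0.5 times the lowest other WT library, against 0.761% of all genes. The outermost of these 11 set the span chr13:23535422-23745602, which holds 20 members. The others in it, among them *Hist1h1d* and *Hist1h1e*, were not below that limit. *Hist1h3c* was 83.4, 98.6, 45.7 and 2.21 CPM in E9.5 WT A to D, *Hist1h2ae* 212, 235, 132 and 16.7, and *Hist1h4d* 121, 148, 81.5 and 20.97. WT D was the lowest and WT C the next lowest of the 4 for each of these.

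The 11 genes summed to 475, 546, 302 and 54.5 CPM in E9.5 WT A to D, and to 498 to 671 in the E9.5 null libraries. At E8.5 they summed to 615 in null A and 320 in null B. *Hist1h3c*, *Hist1h2ae* and *Hist1h4d* were lowest in WT D in 25 of the 25 cell types seen in all 4 WT libraries, and 8 others of the 11 in 3 (*Hist1h2ad*) to 24 (*Hist1h2be*) of them. The 11 were picked for their low level in WT D and the types split the same cells, so this count is no further test. *Hist1h1b*, outside the stretch, was lowest in WT D in 15 of 25. Within the same span *Hist1h4c* (H4) went the other way, at 4.03, 4.88, 12.2 and 20.9 in WT A to D. WT D was also the WT library with the largest share of cells with a tdTomato UMI, 8.47%, and these cells had been left out. E8.5 null B had a tdTomato UMI in 72.3% of its cells, the smallest share of the null libraries. The part of either share in these levels was not tested.

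**Figure D2:**
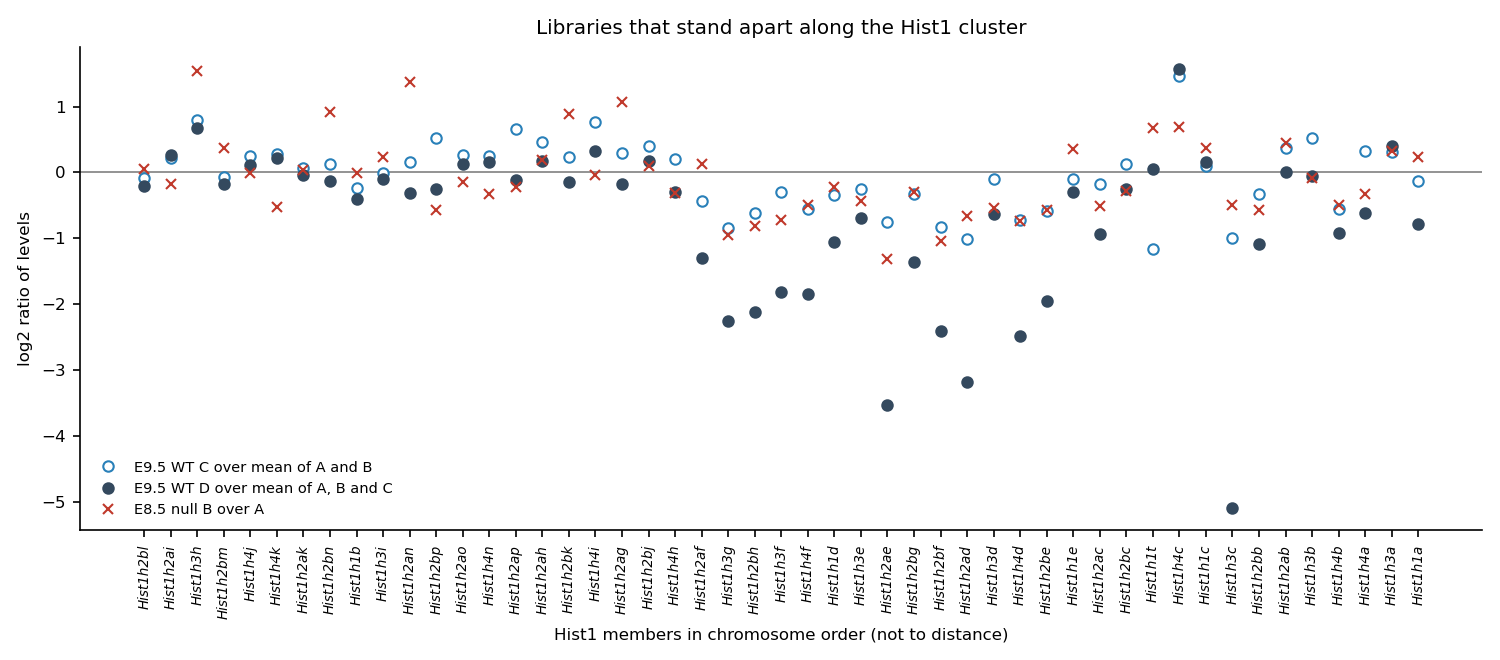
log2 ratio of levels (y axis) for members of the *Hist1* cluster in chromosome order (x axis, evenly spaced, *Hist1h2aa* left out for its low counts), in E9.5 WT C over the mean of A and B (open circles), in E9.5 WT D over the mean of A, B and C (filled circles) and in E8.5 null B over null A (crosses). WT D drops over the genes from *Hist1h2af* to *Hist1h2be* and again at *Hist1h3c* (2.21 CPM), with a rise at *Hist1h4c* between them. The other ratios mostly drop at the same genes, by less.

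Outside that stretch, *Hist2h2ac* was 94.7 CPM in E8.5 WT A and 29.2 in E8.5 WT B. Members varied more between libraries of one group than other genes did. The median SD of log2 levels in E9.5 WT was 0.25 over members and 0.10 over all genes tested, and in E8.5 WT it was 0.21 and 0.08. The gap was smaller at E7.5, at 0.13 and 0.10 in WT and 0.16 and 0.11 in null. All genes were not matched to the members for level. With 2 libraries in each arm, this spread limits what could be called at E7.5 and E8.5.

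To ask which members differed between *Stat3* null and WT cells, UMIs were summed per library and compared with edgeR's quasi-likelihood test at each stage (adjusted p under 0.05, Benjamini-Hochberg over all genes). At E7.5, 5 of 60 members tested passed, 4 higher and 1 lower in null, against 2.92% of all genes. At E8.5, 1 of 61 passed, against 0.0278%, and at E9.5, 2 of 60, against 1.21%. The median log2 fold change over the members tested was 0.21, -0.08 and 0.08, beside 0.02, 0.00 and 0.00 over all genes. The members' median depended on single libraries and on the cells compared. At E7.5 it was 0.07 with a matched cell-type make-up, 0.10 without null A and 0.34 without WT B, at E8.5 it was 0.11 without WT A and -0.26 without WT B or null A, and at E9.5 it was 0.03 without WT D and 0.16 with a matched make-up. Only *Hist1h4i* was called at every stage.

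*Hist1h4i* (ENSMUSG00000060639) is 1 of the 12 H4 genes and lies at chr13:22040636-22041362 on the minus strand. At E7.5 it was 14.8 and 14.7 CPM in null and 28.0 and 24.2 in WT libraries. At E8.5 it was 15.4 and 14.9 in null and 49.95 and 50.4 in WT. At E9.5 it was 13.2, 13.1, 15.4 and 12.9 in null and 40.3, 37.6, 66.2 and 59.96 in WT. Every null library was below every WT library of any stage.

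The log2 fold change of *Hist1h4i* in null over WT was -0.77 ± 0.11 at E7.5 (SE, adjusted p = 0.018, edgeR), -1.74 ± 0.07 at E8.5 (adjusted p = 0.0081, edgeR) and -1.91 ± 0.19 at E9.5 (adjusted p = 0.00233, edgeR). The E9.5 call held in every alternative fit and without any one library. At E8.5 it was lost without WT A (adjusted p = 0.113, edgeR) or WT B (0.119), and at E7.5 without WT A (0.0859), null A (0.109) or null B (0.0743), with all 16 libraries in 1 fit (0.067) and with a matched cell-type make-up (0.0901), with fold changes of the same sign and similar size. The change from one stage to the next was tested as an interaction over all 16 libraries. The fold change of *Hist1h4i* was 0.97 ± 0.31 lower (log2) at E8.5 than at E7.5 (-0.97, unadjusted p = 0.0082, adjusted p = 0.204, edgeR), which did not pass.

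No member passed either interaction test. Between E7.5 and E8.5, 0 of 62 were called by edgeR (4 at an unadjusted p under 0.05, 1 by DESeq2), against 1.41% of all genes, and between E8.5 and E9.5 0 of 62 (0 at an unadjusted p under 0.05, 0 by DESeq2), against 0.0321%.

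Groups that do not overlap were counted as well. Null libraries were all above WT for 24 members and all below for 9 at E7.5, where 41.7% of all genes did not overlap, for 1 and 12 at E8.5, against 31.3%, and for 5 and 6 at E9.5, against 6.97%. 3 members did not overlap in the same direction at all stages, *Hist1h4i*, *Hist1h2bj* and *Hist1h4j*, all lower in null, against 1.78% of all genes in either direction.

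*Hist1h2bj*, an H2B gene, lies 1852 bases from *Hist1h4i* at chr13:22043214-22043676 on the plus strand. At E7.5 it was 16.7 and 12.1 CPM in null and 19.0 and 20.7 in WT libraries. The E8.5 levels were 18.4 and 19.7 in null and 46.7 and 34.3 in WT, and those of E9.5 were 13.2, 14.9, 18.6 and 13.2 in null and 19.7, 22.9, 28.2 and 26.6 in WT. Null libraries were thus below WT libraries at each stage. Its log2 fold change was -0.40, -1.12 and -0.71 and did not pass over whole libraries (adjusted p = 0.365, 0.362 and 0.066, edgeR). *Hist1h2ag*, an H2A gene that lies between the 2 at 1098 bases from *Hist1h4i*, had log2 fold changes of -0.02, 0.25 and 0.08, none of which passed. *Hist1h4j*, another H4 gene, ranged from 2.34 to 2.91 in null and from 2.75 to 3.53 in WT libraries, and its fold changes of -0.21, -0.27 and -0.29 did not pass.

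The 4 members higher in null at E7.5 were *Hist1h3c* and *Hist1h3f* (H3), *Hist1h4d* (H4) and *Hist1h2ae* (H2A), and all of them are among the 11 genes that were low in E9.5 WT D. *Hist1h3c* was 70.7 and 55.6 CPM in null and 33.5 and 27.4 in WT libraries (log2 1.11 ± 0.14, adjusted p = 0.011, edgeR). *Hist1h4d* was 128 and 91.0 in null and 48.1 and 56.2 in WT (log2 1.12 ± 0.17, adjusted p = 0.0243, edgeR). *Hist1h2ae* was 271 and 246 in null and 117 and 157 in WT (log2 0.97 ± 0.16, adjusted p = 0.0301, edgeR). Null and WT libraries did not overlap for any of them, which adds no test, since they were named for having passed. At this stage 41.7% of all genes did not overlap.

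*Hist1h3f* was 16.6 and 17.2 CPM in null and 8.32 and 9.86 in WT at E7.5 (log2 0.94 ± 0.14, adjusted p = 0.0195, edgeR). With null A left out 0 members were called at E7.5 (16 at an unadjusted p under 0.05), with null B left out 2, and leaving out WT A or WT B gave 2 and 7. The share of all genes called fell as well, from 2.92% to 1.046%, 1.62%, 1.97% and 2.51% in these fits. When all 16 libraries shared 1 estimate of the spread, 0 of 62 members were called by edgeR (3 at an unadjusted p under 0.05), while the share of all genes called rose to 5.34%. With a matched cell-type make-up, 2 of 53 members were called, beside 0.26% of all genes. *Hist1h2ae* and *Hist1h3f* passed there and *Hist1h3c* (log2 1.20, adjusted p = 0.173, edgeR) and *Hist1h4d* (log2 1.03, adjusted p = 0.057) did not. The log2 fold changes kept their sign, at 0.95 to 1.25 for *Hist1h3c*, 0.87 to 1.32 for *Hist1h4d*, 0.75 to 1.22 for *Hist1h2ae* and 0.81 to 1.10 for *Hist1h3f* with 1 library left out. The 11 genes of the low stretch together were 531 and 450 in null and 227 and 279 in WT at E7.5. The S-phase score described below was higher in the E7.5 null libraries, with a median of 58 UMIs per cell in both, than in the WT libraries, with 54 in both, and its part in these calls was not tested. These medians are over all kept cells, without a matched cell-type make-up.

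At E8.5 the same 4 members overlapped between genotypes and none passed. At E9.5 their log2 fold changes were 0.64 to 0.88 with WT D and 0.32 to 0.48 without it, and none passed in either fit.

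*Hist2h2ac*, an H2A gene of the *Hist2* cluster, was the other member called at E9.5, at 77.8, 89.6, 82.0 and 65.1 CPM in null and 41.5, 51.0, 41.4 and 45.5 in WT libraries. Every null library was above every WT library, at a stage where 6.97% of all genes did not overlap. Its log2 fold change was 0.81 ± 0.11 (adjusted p = 0.00923, edgeR), with 0.73 to 0.88 over the alternatives, and it was lost only when all 16 libraries shared 1 spread (adjusted p = 0.251). At E7.5 it was 86.2 and 70.8 in null and 68.5 and 70.2 in WT, and it did not pass. Its E8.5 levels were 84.4 and 83.3 in null and 94.7 and 29.2 in WT, which did not pass either, and the log2 fold change was 1.52 without WT A and -0.21 without WT B.

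The summed level of all members overlapped between genotypes at E8.5 and E9.5. It was 2967 and 3277 CPM in null and 2636 and 2773 in WT at E7.5. The E8.5 sums were 3194 and 2885 in null and 3568 and 2668 in WT, and those of E9.5 ran from 2513 to 3103 in null and from 2028 to 3037 in WT. By class, the H3 genes summed to 182 and 152 CPM in null and 115 and 113 in WT at E7.5, and the H4 genes to 253 and 199.7 in null and 160.4 and 176 in WT. The H1 genes summed to 1124 and 1207 in null and 988 and 1079 in WT. These 3 classes did not overlap between genotypes at E7.5, where 41.7% of all genes did not, and the H2A and H2B classes did. The E7.5 sums were taken over all kept cells, without a matched cell-type make-up. Visceral endoderm, the E7.5 type with the lowest summed level (1552 CPM), held enough cells for a level in WT libraries only. With a matched make-up the members' median log2 fold change at E7.5 was 0.07 in place of 0.21. The part of cell-type make-up in the gaps between these sums was not tested. Within the H4 sums *Hist1h4d*, called above, was 128 and 91.0 in null and 48.1 and 56.2 in WT. Its part in the H4 gap was not tested. At E9.5 the H3 genes summed to 203 to 274 in null and 91.8 to 219.96 in WT, with the lowest sum in WT D.

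The same comparison within the cell types transferred from the gastrulation atlas asks whether these differences run through many tissues. A type was tested where 2 or more libraries of each genotype had over 15 of its cells, and a call needed an absolute log2 fold change over 1 as well. At E7.5, 12 of 298 pairs of a member and a type passed, 11 higher and 1 lower in null, against 0.186% of all pairs. At E8.5, 17 of 752 passed, all lower in null, against 0.0609%. At E9.5, 29 of 1293 passed, 6 higher and 23 lower, against 0.12%.

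*Hist1h4i* was lower in null in 7 of 7 types at E7.5, 20 of 20 at E8.5 and 37 of 37 at E9.5, and it passed in 1, 14 and 22 of them. The 14 depended on the fit. At E8.5 all members together gave 9 calls with DESeq2 (0.0674% of all pairs) and 8 with all 16 libraries in 1 fit (0.068%). The median log2 fold change of *Hist1h4i* over types was -1.003, -1.69 and -1.93. In WT the type means ran from 20.9 to 32.4 CPM at E7.5, 31.0 to 65.6 at E8.5 and 18.8 to 78.0 at E9.5. In null they ran from 11.4 to 14.9, 10.6 to 24.8 and 8.66 to 18.7.

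The smallest adjusted p was in E9.5 cranial mesoderm, where *Hist1h4i* was 12.0 ± 1.82 (SD, n = 4) in null and 50.5 ± 9.29 in WT (log2 -2.09 ± 0.17, adjusted p = 4.96e-09, edgeR). In E8.5 erythroid cells it was 18.9 ± 0.804 (SD, n = 2) in null and 65.6 ± 12.0 in WT (log2 -1.82 ± 0.12, adjusted p = 0.0048, edgeR). In E9.5 spinal cord progenitors the log2 fold change was -2.42 ± 0.28 (adjusted p = 1.65e-05, edgeR), the most negative of the calls. Null and WT libraries overlapped in 3 of the 64 tests, E9.5 venous endothelium, allantois and epidermis, none of which passed.

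**Figure D3:**
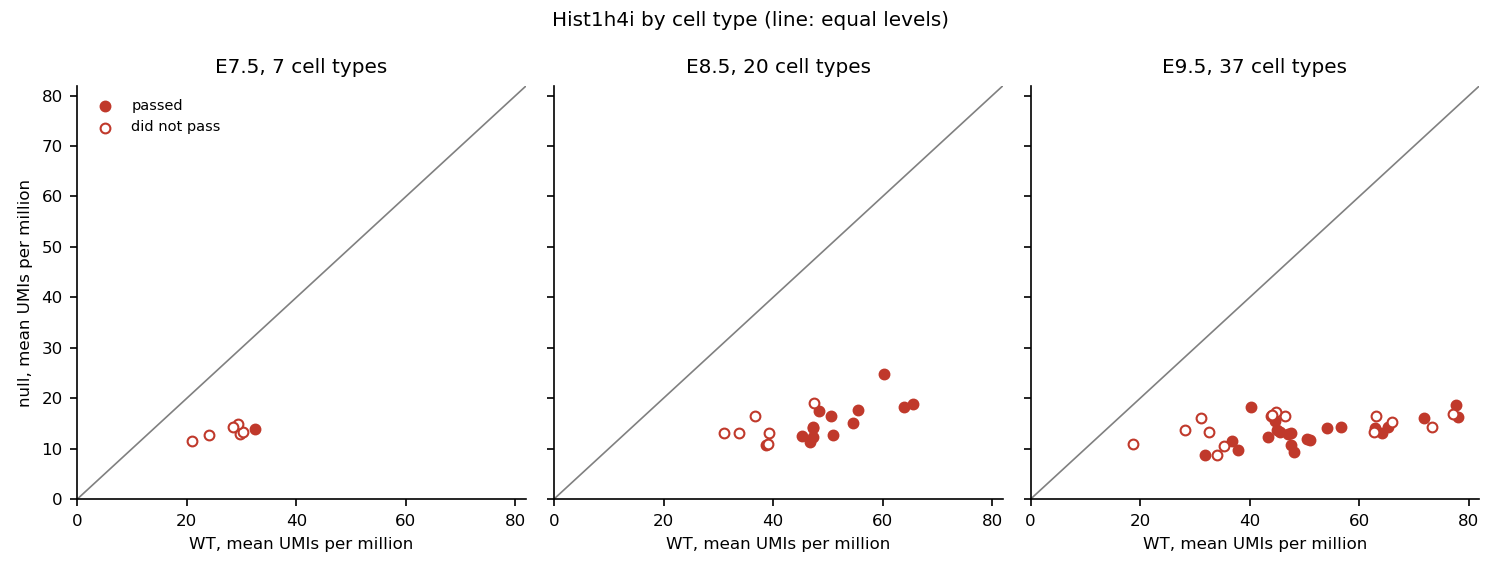
Mean level of *Hist1h4i* in WT libraries (x axis) and null libraries (y axis), both in CPM, for each cell type tested, with a panel for each stage and filled points for types that passed and the grey line for equal levels. All points lie below the line, and null means stay at 8.66 to 24.8 while WT means reach 78.0.

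Among the other members, *Hist1h3c* passed in 5 types, *Hist1h2ae* in 4, *Hist2h2ac* in 4, *Hist1h4d* in 3, *Hist1h2bj* in 3, and *Hist1h2bn* and *Hist1h3e* in 1 each. *Hist1h2ae* in E7.5 mesenchyme reached 225 ± 44.5 CPM in the null libraries and 81.9 ± 5.75 in the WT libraries (SD, n = 2, log2 1.51 ± 0.15, adjusted p = 2.52e-05, edgeR). *Hist1h3c* in E7.5 caudal epiblast was 74.9 ± 0.932 in null and 26.7 ± 3.61 in WT (SD, n = 2, log2 1.51 ± 0.20, adjusted p = 3.3e-05, edgeR). Calls of *Hist1h2ae*, *Hist1h4d* and *Hist1h3c* were thus at E7.5, with 1 exception, *Hist1h3c* in E9.5 venous endothelium.

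*Hist2h2ac* was higher in null in 37 of 37 types at E9.5, with a median log2 of 0.84. *Hist1h3c*, *Hist1h2ae* and *Hist1h4d* were also higher in 37 of 37 (medians 0.96, 0.78 and 0.72), with the low levels of WT D among their WT values, and types share the same libraries. *Hist2h2ac* passed in second heart field (SHF) cardiopharyngeal progenitors, at 119.6 ± 35.5 (SD, n = 3) in null and 38.0 ± 10.8 in WT (log2 1.61 ± 0.23, adjusted p = 0.00102, edgeR), and in pharyngeal endoderm, posterior somitic tissues and placodal ectoderm. *Hist1h2bj* was lower in null in 19 of 19 types at E8.5 and 32 of 33 at E9.5. It passed at E8.5 in sclerotome, cranial mesoderm and limb mesoderm (log2 -1.39, -1.71 and -1.11), and in no type at E9.5 with the fold threshold and 2 without it.

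How the members changed over time was read from the WT libraries. From E7.5 to E8.5, 30 of 61 members passed, 28 higher and 2 lower, against 39.3% of all genes (19.9% higher and 19.4% lower), and the median log2 was 0.68 beside 0.00. From E8.5 to E9.5, 24 of 61 passed, 1 higher and 23 lower, against 41.6% (20.6% higher and 21% lower), with a median of -0.56 beside 0.02. The scaling moved the median of all genes: in plain CPM it shifted by -0.17 and 0.32, and the members' medians were then 0.50 and -0.26, with 50 of 61 higher in the first step and 45 of 61 lower in the second.

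The H3 and H4 classes moved most in the first step. All 12 H3 and all 12 H4 genes had a positive log2 value, of which 9 and 7 passed, with class medians of 0.98 and 0.84, beside 0.38 for H1, 0.46 for H2A and 0.62 for H2B. *Hist1h3f* rose from 8.32 and 9.86 to 23.9 and 17.7 CPM (log2 1.36 ± 0.19, adjusted p = 0.00515, edgeR). *Hist1h4d* rose from 48.1 and 56.2 to 129 and 100.5 (log2 1.30 ± 0.17, adjusted p = 0.00508, edgeR), and *Hist1h2bj* from 19.0 and 20.7 to 46.7 and 34.3 (log2 1.20 ± 0.18, adjusted p = 0.00675, edgeR). Earlier and later libraries did not overlap for these genes, which were picked among the largest rises that passed. The share of all genes with such a separation was not counted.

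*Hist1h4a* (log2 1.19 ± 0.25, adjusted p = 0.0231, edgeR) and *Hist1h4i* (log2 1.11 ± 0.09, adjusted p = 0.000711, edgeR) completed the 5 with the largest rise. *Hist1h1t*, the testis linker histone, fell from 1.44 and 1.75 to 0.35 and 0.361 CPM (log2 -2.01 ± 0.31, adjusted p = 0.00472, edgeR). *Hist1h2aa*, a testis H2A gene, held 16 and 35 UMIs in E7.5 and 0 and 4 in E8.5 WT libraries, too few for a fold change. In the null libraries 7 of 61 members passed in this step, against 25.5% of all genes, and *Hist1h4i* had a log2 of 0.12. There *Hist1h3f* (0.51), *Hist1h4d* (0.32), *Hist1h2bj* (0.47) and *Hist1h4a* (0.49) did not pass either. *Hist1h3f* and *Hist1h4d* are also among the genes of the low stretch, which varied between libraries of one group.

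From E8.5 to E9.5 the largest fall among the members that passed was of *Hist1h3b* (log2 -1.30 ± 0.19, adjusted p = 0.00325, edgeR), from 22.7 and 15.9 to 8.68, 8.48, 12.3 and 9.41 CPM. *Hist2h3c1*, *Hist1h2bj*, *Hist1h2ap* and *Hist1h2ai* were the next of those that passed, with log2 values of -1.15, -1.04, -1.01 and -0.995. *Hist3h2ba*, an H2B gene of the *Hist3* cluster, was the only member that passed as higher, from 11.4 and 14.2 to 31.1, 27.0, 25.6 and 20.3 (log2 0.72 ± 0.17, adjusted p = 0.015, edgeR). With a matched cell-type make-up, 17 of 60 members passed, beside 31.9% of all genes, and 0 of them as higher. E8.5 WT A was the higher of the 2 E8.5 WT libraries for most members, and without it 17 members passed in the first step, where the share of all genes called fell from 39.3% to 15.7%, and 4 in the second, where it fell from 41.6% to 27.1%. Without E7.5 WT A 17 members passed in the first step too, beside 36.0% of all genes. With E9.5 WT A left out 16 passed in the second step, beside 34.0%, and with WT D left out 25, beside 45.1%. In the null libraries 20 passed in it, against 40.1% of all genes.

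**Figure D4:**
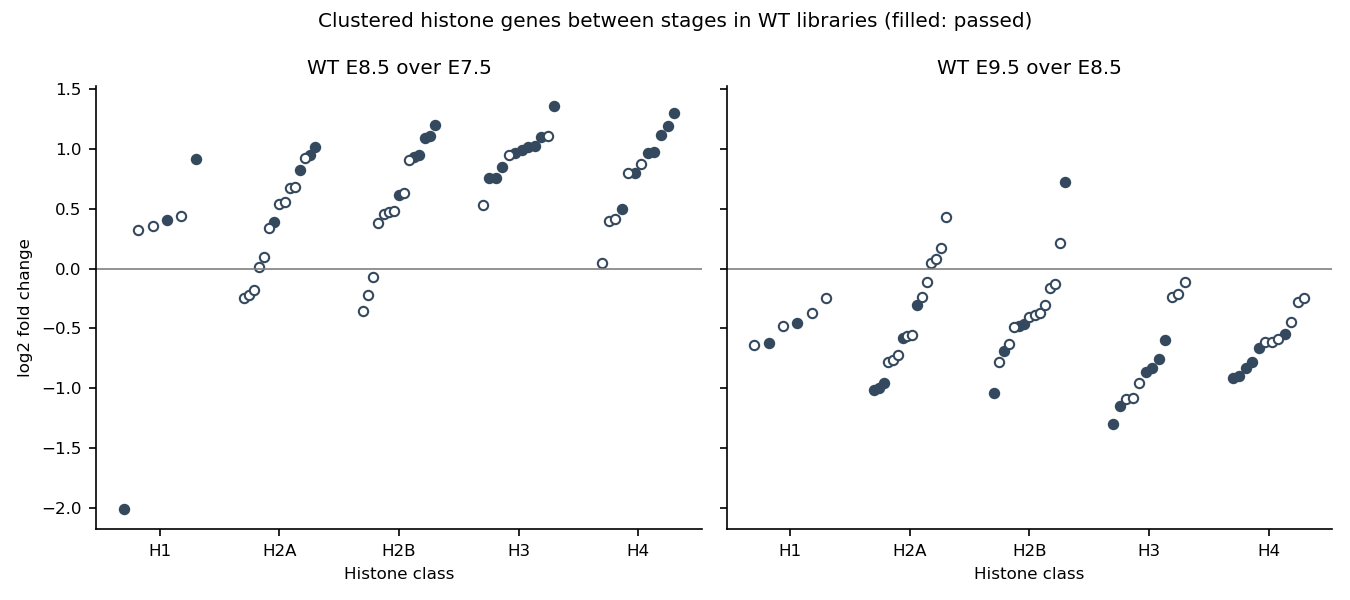
log2 fold change of each member between stages in WT libraries (y axis), by histone class (x axis), for E8.5 over E7.5 and E9.5 over E8.5, with filled points for members that passed and *Hist1h2aa* left out. Most points lie above 0 in the first panel, where 28 passed as higher, and below 0 in the second, where 23 passed as lower and *Hist3h2ba* alone as higher.

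Since these genes are known for expression in S phase, cells were also ranked by an S-phase score that used no member. Each cell was thinned to 10000 UMIs, the UMIs of 43 S-phase genes were summed, the cells of each library and cell type were divided into 4 classes of equal size, and the class with the highest score was set against the lowest (6398 cells each, median 77 and 37 UMIs). Of 54 members tested, 50 passed, 48 higher and 2 lower in the high class, against 42.3% of all genes (20.9% higher and 21.4% lower). The median log2 was 0.71 beside -0.02. Since both classes are ranges of a score, 3570 of the 25917 cells ranked lay within 1 UMI of a limit.

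The 5 with the largest rise came from 4 classes. *Hist1h1a* (H1.1) had a median of 60.3 CPM in the low and 145 in the high class and was higher in 15 of the 15 libraries that gave both classes (log2 1.27 ± 0.07, adjusted p = 6.99e-10, edgeR). It was followed by *Hist1h2an* (1.14), *Hist1h2ac* (1.13), *Hist1h3g* (1.11) and *Hist1h2bn* (1.10). The most abundant member, *Hist1h1b*, went from a median of 502 to 1126, also in 15 of 15 libraries (log2 1.02 ± 0.06, adjusted p = 6.91e-10, edgeR). By contrast *Hist1h4d*, which holds more UMIs than any other H4 gene, rose by 0.27 ± 0.07 (adjusted p = 0.00313, edgeR), the smallest of the 48.

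*Hist1h4i* rose as well, by 0.46 ± 0.06 (adjusted p = 2.71e-09, edgeR). The 2 members that fell with the score are both in the *Hist3* cluster. *Hist3h2a* was lower in 15 of 15 libraries, with medians of 8.54 in the low and 5.14 in the high class (log2 -0.79 ± 0.11, adjusted p = 9.12e-08, edgeR), and *Hist3h2ba* in 13 of 15 (log2 -0.56 ± 0.09, adjusted p = 5.91e-05, edgeR). With a G2/M score in place of the S score, 12 of 52 members passed, 2 higher and 10 lower, against 37.5% of all genes (16.8% higher and 20.6% lower). *Hist2h2ab* (H2A) and *Hist1h4d* were the 2 higher ones, at log2 0.77 and 0.42.

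**Figure D5:**
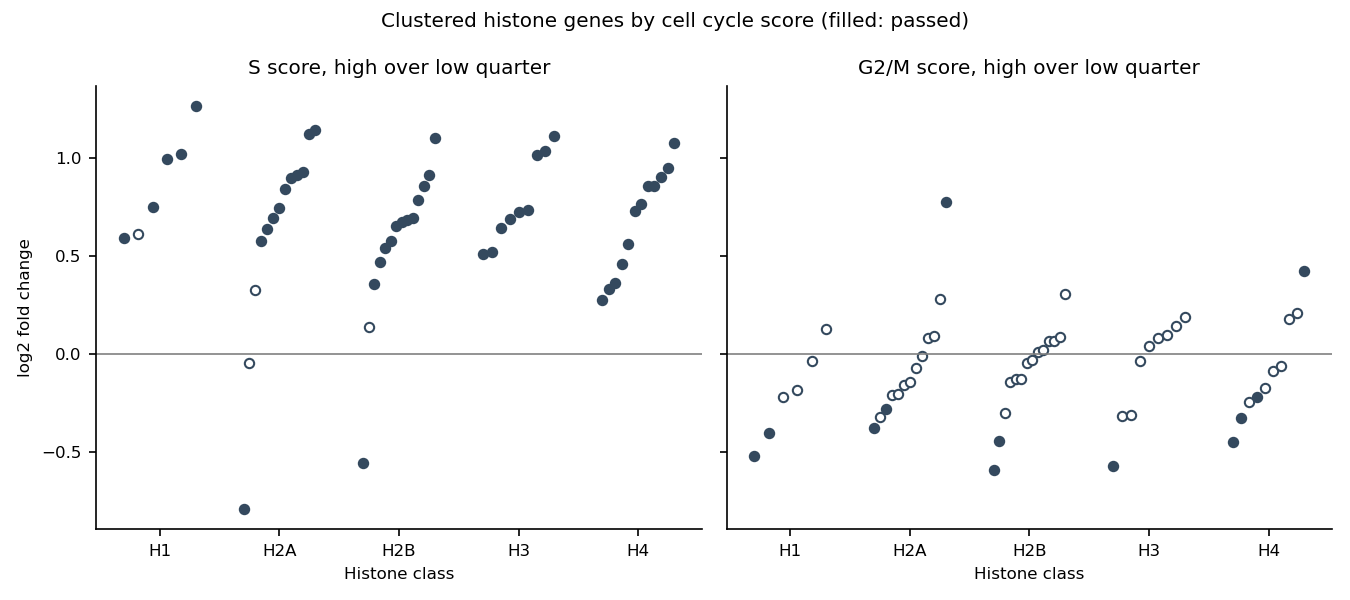
log2 fold change of each member (y axis) between the high and low class of cells by S score and by G2/M score, by histone class (x axis), with filled points for members that passed. With the S score 48 members passed as higher and the 2 *Hist3* genes as lower, and with the G2/M score the points gather around 0.

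The summed level of the members also varied between cell types. These levels are means over the null and WT libraries that held over 15 cells of the type, a different set for each type. At E7.5 it ran over 17 types from 1552 CPM in visceral endoderm (2 WT libraries) to 3684 in SHF cardiopharyngeal progenitors (1 null and 1 WT library), which was within the spread of the next types, nascent mesoderm at 3579 ± 516 and non-neural ectoderm at 3562 ± 487 (SD, n = 3). At E9.5 it ran from 1154 in yolk sac (YS) endothelium to 4671 in hindbrain neural progenitors, over 48 types. Erythroid cells were at 3399 ± 344 (SD, 2 null and 2 WT libraries) at E8.5 and at 1426 ± 138 (SD, 4 WT libraries) at E9.5. Across types the summed level followed the S score, taken as the mean over libraries of each library's median. Pearson's r was 0.90 over 17 types at E7.5, 0.59 over 48 at E8.5 and 0.86 over 48 at E9.5. This is a description, since the types share libraries and depth.

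Genes that act on histone mRNAs and proteins were counted as 3 lists. Of 35 genes of the histone locus body and of histone mRNA 3′ end processing and decay, 0 passed edgeR's test between null and WT at E7.5 (5 at an unadjusted p under 0.05, 1 by DESeq2) and 0 at E8.5 (2 and 1). At E9.5, 2 passed, *Lsm11*, a subunit of the U7 particle (log2 0.27), and *Cdk9*, a kinase of transcription elongation (log2 -0.29). Of 26 chaperones of new histones, 0 passed at any stage by edgeR or DESeq2 (6, 0 and 2 at an unadjusted p under 0.05). Of 11 variant histone genes 1 passed, *H2afx* at E7.5 (log2 0.55), and 0 at E8.5 (1 at an unadjusted p under 0.05, 1 by DESeq2) and at E9.5 (2 and 1). These counts stand beside 2.92%, 0.0278% and 1.21% of all genes at the 3 stages. From E7.5 to E8.5 in WT, where 39.3% of all genes passed, 4 of 35 processing genes rose and 9 fell, among them *Npat*, the coactivator of histone transcription (log2 -0.52). In the same step 7 of 26 chaperones rose and 5 fell, and 8 of 11 variant genes rose and 1 fell, among the risen *H2afy*, which codes for macroH2A (log2 1.09).

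From E8.5 to E9.5 in WT, where 20.6% of all genes passed as higher and 21% as lower, 1 of 35 processing genes rose and 10 fell, 5 of 26 chaperones rose and 11 fell, and 4 of 11 variant genes rose and 2 fell. With the S score, where 20.9% of all genes passed as higher and 21.4% as lower, 20 of 23 chaperones tested rose and 0 fell, led by *Chaf1a* (log2 1.13), a subunit of the assembly factor CAF-1, and 17 of 32 processing genes rose and 2 fell, led by *E2f1* (log2 1.33). The processing list also holds general cell cycle genes, *E2f1* and *Cdk2* among them. Of 11 variant genes, 2 rose and 5 fell, led by *Cenpa*, the centromeric H3 variant (log2 -0.43). List genes that belong to the S score were left out of these counts.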

How the data were processed

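Single-cell libraries of sorted *Stat3* null and WT cells were analysed from the matrix of UMI counts that the authors deposited, made with CellRanger on mm10 and filtered by the authors to cells with over 10000 UMIs. Mitochondrial percent per cell, also deposited, was 0.94 to 1.81 (median) over libraries. The authors' doublet calls (3395 of 41832 cells) were removed, as were 596 cells of the WT gate in which tdTomato was counted. Each library was placed in its group by the stage and sort gate given in the cell table. Library names match no single sample label, so no library was tied to a sample or an embryo pool.

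UMIs were summed per library, or per library and cell type as labelled by the authors, without tdTomato and without predicted, mitochondrial, ribosomal protein, haemoglobin and sex-linked marker genes. Sums were tested with edgeR 4.0.16 (quasi-likelihood, robust, filterByExpr, TMM) in R 4.3.3, with Benjamini-Hochberg adjustment over all genes tested. The score test carried the library as a block. Scripts were tested on simulated data. Alternatives were DESeq2 1.42.0, limma-voom 3.58.1, other size factors, filters, cells and fits, and each library left out. A fit that leaves 1 library in an arm assumes that it varies like the other group. Low depth limits the rarest members: 3 UMIs correspond to 0.0216 to 0.145 CPM in a library, and this covers counting error only.

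Members and lists were chosen with earlier results of these data known. Named were the 3 members with most UMIs in each class, every member called between null and WT, up to 20 called in cell types, the 5 largest rises and falls between stages and with the S score, and those next to the minimum. Neighbours of *Hist1h4i*, genes of the low stretch and *Hist1h4j* were named after their values were seen. Transcripts were read from GENCODE M21 and promoters from RefSeq (GRCm38).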

Additional observations from a re-analysis of the deposited data

Results flagged for a closer look

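In E9.5 null C, 3 members were far above the other 3 null libraries of that stage by Dixon's criterion. *Hist1h2an* was 8.20 CPM (UMIs scaled to 1000000 per library), with the next library at 4.89. *Hist1h4h* was 52.5, with the next at 45.3, and *Hist1h4i* was 15.4, with the next at 13.2. For the 29 named members in both E9.5 groups, 58 groups were examined, of which chance flags about 1 in 20. Without E9.5 null C, 4 members were called between null and WT at E9.5 (0.573% of all genes) in place of 2 (1.21%). *Hist1h4i* remained among the genes called.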

How the results depend on the processing

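No paired analysis was possible because the library names of the cell table match no sample label, so no library can be tied to an embryo pool. Of the 6 members called between null and WT at any stage, 4 turned sign at E8.5, where they had not passed, with 1 library left out: *Hist1h2ae* -0.60, *Hist1h3f* -0.32 and *Hist1h4d* -0.29 without null A, and *Hist1h3f* -0.11, *Hist1h4d* -0.04 and *Hist2h2ac* -0.21 without WT B. With the S score, 3 classes in place of 4 gave 51 calls of 55 members (42.0% of all genes) and DESeq2 49 of 54 (37.3%), in place of 50 (42.3%). The G2/M list scores another phase and is no like alternative to the S list. With it, 30 of the 48 members called with the S score and tested with both had the opposite sign. Among them were the 5 with the largest rise: *Hist1h1a* -0.52, *Hist1h3g* -0.32, *Hist1h2bn* -0.30, *Hist1h2an* -0.16 and *Hist1h2ac* -0.011. The G2/M score gave 12 calls (37.5% of all genes). Between null and WT at E7.5, 5 calls (2.92% of all genes called) became 0 with all 16 libraries in 1 fit (5.34%), 2 with a matched cell-type make-up (0.26%), 2 with the fold threshold, 8 with DESeq2 (4.07%) and 8 without the filter on low counts (3.47%). At E8.5 DESeq2 gave 2 (0.667% of all genes) in place of 1 (0.0278%). At E9.5 DESeq2 gave 6 (3.25%) and the fold threshold 1, in place of 2 (1.21%). Between stages, the null libraries gave 7 (25.5% of all genes) in place of 30 (39.3%) from E7.5 to E8.5, and the fold threshold 13, and 4 in place of 24 from E8.5 to E9.5. DESeq2 gave 1 call in the first interaction. Within cell types, 12 calls in 298 member pairs at E7.5, 17 in 752 at E8.5 and 29 in 1293 at E9.5 (0.186%, 0.0609% and 0.12% of all pairs called) became 26 in 428, 30 in 1198 and 59 in 2230 without the low-count filter (0.271%, 0.175% and 0.216%). With over 50 cells a type they were 3 in 148 at E8.5 (0.0585%) and 10 in 654 at E9.5 (0.146%), from 3 and 14 types, and no E7.5 type could be tested. At E7.5, leaving out null cells without a tdTomato UMI gave 7 in 218 (0.151%), from 5 types in place of 7. At E8.5 DESeq2 gave 9 in 752 (0.0674%) and 1 fit of all libraries 8 in 864 (0.068%). The cause of these moves was not tested. Over whole libraries the share of all genes that met the fold threshold was not counted. Leaving out each library in turn gave 0 to 7 calls at E7.5, 0 to 1 at E8.5 and 2 to 4 at E9.5 between null and WT, 12 to 18, 23 to 32 and 22 to 48 within cell types (32 without E8.5 null B, 48 without E9.5 WT A), where the share of all pairs called ran from 0.21% to 0.419% at E7.5, 0.107% to 0.418% at E8.5 and 0.114% to 0.157% at E9.5, 17 to 28 and 4 to 25 between stages, 48 to 50 with the S score, and 0 to 1 (1 without E8.5 WT A) and 0 to 0 in the interactions.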
